A study of Danio rerio with 9 samples.

Results

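The effect of 12-h light was measured by setting 3 whole-larva samples that had been lit for 12 h against 3 that had stayed in darkness, with 1 pair each from WT, DKO and TKO zebrafish. These 6 samples were chosen by their lighting and genotype from the 9 samples of the series. The remaining 3, given 3-h light, entered the main fit only to estimate the spread. They also counted in the probe filter, the choice of a gene's probe and the principal components. Where a dark or 12-h light array was left out, they entered the estimate of the change too. All larvae were of the TL strain, were raised in constant darkness after fertilization and were taken at 6 dpf (days post fertilization). WT larvae carried no introduced mutation. DKO larvae were knockouts of zPer2 and zCry1a, and TKO larvae were knockouts of zPer2, zCry1a and zCry2a, made with TALEN (zPer2, zCry1a) and CRISPR-Cas9 (zCry2a) nonsense mutations. For DKO larvae the study states that samples were taken 12 h after light onset, and for WT and TKO larvae the hour is not given in the sources used here. The number of larvae behind each sample is not stated either. Total RNA from the whole body was labelled with the dye Cy3 and hybridised on 1-colour Agilent arrays, 1 array for each combination of genotype and lighting. Because whole bodies were used, fewer cells of a type and less RNA per cell cannot be told apart.

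Zebrafish cells respond to light directly, since most tissues carry their own clock and their own photoreceptive proteins. In that clock CLOCK or NPAS2 pairs with BMAL to drive transcription, and PER and CRY proteins repress the pair. Light acts on the clock largely by inducing particular Per and Cry genes, and the same signal turns on DNA repair enzymes. Cell division in zebrafish larvae is timed by the light cycle, and feeding, liver metabolism, hormone release and the renewal of photoreceptor outer segments also follow the day.

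The level of a probe is given as its log2 signal relative to the 75th percentile of the spots on its array, so 0 means a signal equal to that percentile and each unit is 2-fold. A change is the log2 ratio of 12-h light to darkness within a genotype, and the mean change is the average over WT, DKO and TKO larvae. Changes were tested with limma in a model with terms for lighting and genotype over all 9 arrays, and a probe was called at an adjusted p under 0.05. Repeated spots of the same probe on an array had a standard deviation of 0.133 (log2), which gives 0.188 for a ratio. A gene is represented by its brightest probe. Genes whose call did not survive the removal of 1 array are given with the number of the 9 leave-one-out fits in which the call held. Where dark and lit arrays are said not to overlap, this describes genes already called. The share of all genes without overlap was not counted.

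Of 39143 probes tested, limma called 5669 higher (14.5%) and 3786 lower (9.67%) at 12-h light. After scaling each array to its median, 49.8% of the called probes were higher, against 59.96% here. Of 12915 genes with a symbol, 1711 (13.2%) were called higher and 1636 (12.7%) lower. A change of at least 2-fold in the same direction in all 3 genotypes was seen for 68 genes upward (0.527%) and 95 downward (0.736%), and limma called 162 of these 163. The exception was LOC100216314, which was lower in every genotype with a limma adjusted p of 0.0652. It was well above background on 2 of 3 arrays in each lighting. Its WT signals, -7.66 in darkness and -8.86 at 12-h light, were under the lowest signals well above background there (-6.37 and -6.77). The number of called probes was 9455 in all and depended on single arrays. It was 1994 without DKO 12-h light, 3229 without TKO 12-h light, 4547 without WT 12-h light, 5303 without WT Dark and 5311 without WT 3-h light. With the 6 dark and 12-h light arrays alone it was 2918. Among genes with a symbol 365 were called higher and 358 lower without DKO 12-h light, and 461 and 593 with the 6 arrays, so the counts of most gene lists below are also given without DKO 12-h light. Each list count from all 9 arrays is to be read against the shares of all named genes, 13.2% higher and 12.7% lower. A count without DKO 12-h light or with the 6 arrays is to be read against the calls of that same fit, given above, among 12915 genes. The lists were written with earlier results of these data known, so their counts are descriptions and not tests.

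Before the results, some features of the arrays have to be stated. The dark TKO array lay apart from the others, with a score of 94.6 on a first principal component that held 46.6% of the variance, while the other 8 arrays scored between -42.4 and 20.0. Without that array 10575 probes were called, including 8242 of the 9455. Each slide held the arrays of 1 genotype, so the genotype term is also the slide term. Darkness was always the first position of the slide and 12-h light a later one, so lighting and slide position cannot be told apart. Between 85.9% and 89.8% of spots were well above background on an array. As a check on the tissue label, 25 markers of neurons, retina, lens, liver, gut, pancreas, blood, muscle, heart, pigment cells, skin, cartilage and vessels had a probe, and all 25 were well above background on all 6 arrays. The best probe of each marker was taken and most spots pass this mark, so it is a weak check of the label.

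The knocked-out genes were themselves among the transcripts that rose most. The per2 signal was -4.65 in WT, -4.37 in DKO and -5.17 in TKO larvae in darkness, and -1.01, -0.55 and -0.60 in the same order at 12-h light. All lit arrays were far above all dark arrays, and the mean rise was 4.01 ± 0.183 (log2, SE from limma, 3 pairs), or 16.1-fold, with a limma adjusted p of 0.000289. The cry1a signal rose from 1.28, 0.43 and 0.36 in darkness to 3.12, 2.74 and 2.64 at 12-h light, a mean rise of 2.15 ± 0.164 (limma adjusted p = 0.00132). zCry2a, which is cry3a in current nomenclature, rose from -0.29, -0.36 and -1.15 to 1.83, 1.36 and 0.84, a mean of 1.94 ± 0.115 (limma adjusted p = 0.000604). The mutations are nonsense changes that leave a transcript to be measured, so these levels do not test the genotype labels.

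Among the other Per and Cry genes the pattern was divided. zCry2b (cry3b) went from -5.70, -5.72 and -5.71 in darkness to -1.37, -1.94 and -2.01 at 12-h light, a mean rise of 3.93 ± 0.134 (limma adjusted p = 9.85e-05). per1b, a repressor gene driven by CLOCK and BMAL, was lower at 12-h light. Its signal was 2.36, 2.37 and 2.48 in darkness and -0.81, 1.39 and 1.62 in WT, DKO and TKO larvae at 12-h light, so the fall of WT larvae (-3.17) was much larger than those of DKO (-0.98) and TKO larvae (-0.86). The mean fall of per1b was called (-1.67 ± 0.418, limma adjusted p = 0.0315) and held in 4 of 9 leave-one-out fits, and the difference between genotypes was not tested. The other 5 genes, per1a, per3, cry1b, cry2 and cry4, had mean changes from -0.38 to 0.28 on their brightest probes and were not called. In WT larvae alone these probes changed by -0.05, -0.22, -0.997, -1.10 and 0.44 in that order. The probes of a gene also differed. The other probe of per1a had a mean change of -0.97 and that of per3 -0.39, neither called. Averaged over both probes, per1a changed by -1.25 and per3 by -0.86 in WT larvae. Of the 3 probes of cry1b, 1 was called lower.

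**Figure D1:**
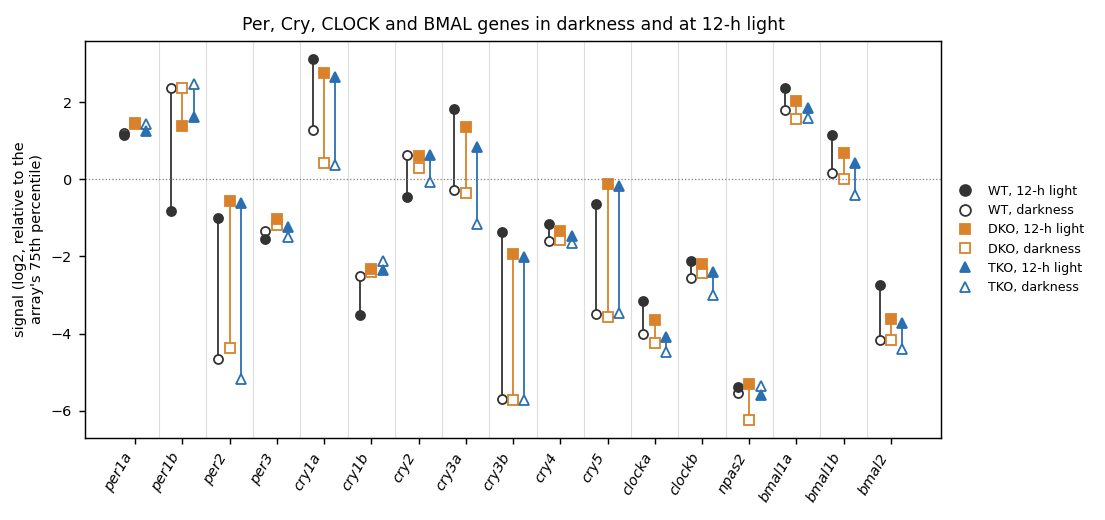
Signal of Per, Cry, CLOCK and BMAL genes and of the photolyase gene cry5 on the 6 arrays (y axis, log2 relative to the array's 75th percentile), with open symbols for darkness, filled symbols for 12-h light, and 1 symbol per genotype. The lit arrays of per2, cry1a, cry3a, cry3b and cry5 lie above all dark arrays, and per1b is lower at 12-h light, most in WT larvae.

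The activating side of the clock was also higher. Of the 6 CLOCK, NPAS2 and BMAL genes, 5 were called higher and none lower, with a median change of 0.52 against 0.04 for all named genes. bmal1b, a partner of CLOCK, went from 0.17, 0.00 and -0.40 in darkness to 1.16, 0.69 and 0.43, a mean rise of 0.84 ± 0.0876 (limma adjusted p = 0.00258). bmal2 rose by 0.88 and clocka by 0.61, with limma calls that held in 6 and 8 of 9 leave-one-out fits, and clockb and bmal1a rose by 0.43 and 0.42, with calls that held in 4 and 5. npas2 changed by 0.29 and was not called. Without DKO 12-h light 1 of the 6 genes was called, without WT 12-h light 2, and without WT Dark or TKO 12-h light 3, and with the 6 dark and 12-h light arrays alone 1 was called.

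In the secondary loops of the clock a minority of each family was called, all higher. Rev-erb and ROR receptors compete for the same element in the bmal promoter, and 3 of the 9 tested were called higher, none lower. These were nr1d4a (1.40, with 0.71, 1.06 and 2.42 in WT, DKO and TKO larvae, held in 7 of 9), rorcb (1.07) and rorca (0.54, held in 5 of 9). Among the 9 tested D-box factors (activators of the Dbp/Tef/Hlf family and the repressor NFIL3), all 3 calls were nfil3 genes and all were upward. nfil3-6 rose from -1.32, -1.21 and -1.25 to 0.10, 0.34 and -0.24, the only one of the 3 that reached 2-fold in every genotype, while nfil3-5 rose by 1.20 and nfil3 by 0.66 (held in 8 of 9). Of 7 tested genes for other repressors and for the turnover of CRY or PER, fbxl3a (0.54, held in 7 of 9) and csnk1e (0.39, held in 5 of 9) were called, both higher. The calls without DKO 12-h light were 1 of the Rev-erb and ROR genes, 2 of the D-box factors and none of these 7 genes. The shares called higher were 33.3%, 33.3% and 28.6% in that order, against 13.2% of all named genes. The medians in WT larvae were 0.00, 0.01 and -0.10. The sign differed between genotypes for 5, 4 and 5 members.

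Genes of light-dependent DNA repair were also higher. Photolyases use light to reverse ultraviolet damage, and cry5, the zebrafish 6-4 photolyase gene, went from -3.49, -3.58 and -3.47 in darkness to -0.64, -0.12 and -0.17 at 12-h light (mean 3.20 ± 0.127, 9.20-fold, limma adjusted p = 0.000155). The lit arrays of cry5 lay above the dark arrays in every genotype. ddb2, which recognises ultraviolet lesions for excision repair, rose by 2.03 ± 0.107 (limma adjusted p = 0.000407). The DNA glycosylase gene neil1 rose by 1.32, cry-dash by 1.27, and the pyrimidine-dimer photolyase gene cpdp by 0.91. Over the list of photolyases and DNA repair genes 8 of 22 were called higher (36.4%) and 2 lower (9.09%), with a median of 0.12. Of all named genes 13.2% were called higher and 12.7% lower. The genes called lower included ercc8 (-0.46, held in 4 of 9). When DKO 12-h light was left out, 5 were called higher and 1 lower.

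In the pineal organ, melatonin is made by AANAT and ASMT enzymes. The list held 11 tested genes, of which 3 were called higher and 2 lower, and without DKO 12-h light none and 1. With all arrays these shares were 27.3% and 18.2%, against 13.2% and 12.7% of all named genes. aanat1, the retinal form, fell from -0.47, -0.76 and -0.71 to -1.15, -1.75 and -2.15 (mean -1.04 ± 0.142, limma adjusted p = 0.00551). aanat2, the pineal form, was 0.10, -0.05 and -0.59 in darkness and 1.59, 0.45 and -0.33 at 12-h light. Its ratio was 1.49 in WT larvae and 0.49 and 0.26 in DKO and TKO larvae, the mean rise (0.75, limma adjusted p = 0.0494) held in 1 of 9 leave-one-out fits, and the TKO value in the light was below the WT value in darkness.

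DNA replication genes fell almost throughout. Of 57 genes listed, 51 had a probe and 50 were tested, and 47 were called lower and none higher. The median change was -1.02, with -1.15 in WT, -0.94 in DKO and -0.88 in TKO larvae, and 15 genes fell at least 2-fold in every genotype. Without the dark TKO array 49 were called lower with a median of -1.05, and with the 6 arrays alone 40 were. pcna, the sliding clamp of the replication fork, was 0.97, 0.82 and 1.35 in darkness and -0.53, -0.59 and -0.02 at 12-h light, so every lit value lay below every dark value (mean -1.43 ± 0.118, limma adjusted p = 0.00161). gins2, a subunit of the replicative helicase, fell from -0.03, -0.15 and 1.20 to -1.80, -1.75 and -1.16 (mean -1.91 ± 0.207, limma adjusted p = 0.00284).

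The called genes belonged to several parts of the replication machinery. tyms, which makes thymidylate, fell by 3.38-fold on average, and orc6, a subunit of the origin recognition complex, by 2.97-fold. mcm5, part of the MCM helicase ring, was 1.55, 1.68 and 1.69 in darkness and -0.45, 0.07 and 0.64 at 12-h light, a fall that was largest in WT larvae. mcm3 (-1.48) and mcm6 (-1.46) fell by similar amounts, but mcm7 changed by only -0.35 and its call held in 1 of 9 leave-one-out fits. rpa3, of the single-strand binding complex, fell by 1.15 in WT, 1.37 in DKO and 2.50 in TKO larvae on the log2 scale, with a limma call that was lost without DKO 12-h light or TKO 12-h light. dnmt1, which copies DNA methylation behind the fork, changed least in TKO larvae (-0.80, -0.53 and -0.11), and its call held in 1 of 9.

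Mitosis genes moved the same way. Of 48 genes listed, all 38 that had a probe were tested, and 36 were called lower and none higher, with a median of -0.82 (-0.88 in WT, -0.94 in DKO and -0.77 in TKO larvae). cdk1, the kinase that starts mitosis, was 0.25, -0.09 and 0.69 in darkness and -0.83, -1.40 and -0.71 at 12-h light (mean -1.26 ± 0.157, limma adjusted p = 0.00421), and its partner cyclin ccnb1 fell from 0.94, 0.95 and 1.25 to -0.20, -0.30 and 0.17 (mean -1.16 ± 0.107, limma adjusted p = 0.00199). The lit and dark arrays did not overlap for either gene. The largest falls in the list were those of birc5a (-1.57), the kinetochore gene spc24 (-1.51), the checkpoint gene mad2l1 (-1.50) and ube2c (-1.49), a ubiquitin-conjugating enzyme of the anaphase-promoting complex. The calls of birc5a, mad2l1 and ube2c were lost without DKO 12-h light, and another probe of birc5a changed by 0.01. Without DKO 12-h light 24 mitosis genes were called lower.

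Genes that brake the cell cycle or act in G1 did not move as a block. Of 26 tested, 4 were called higher and 3 lower, close to the shares of all named genes, with a median of -0.02. btg1, an antiproliferative gene, rose by 0.85 (held in 8 of 9) and the stress-induced gadd45ba by 0.91 (held in 4 of 9), while the S-phase activator e2f3 fell by 0.80 on the log2 scale. Leaving out DKO 12-h light, none was called higher and 1 lower, and without the dark TKO array 8 and 6.

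**Figure D2:**
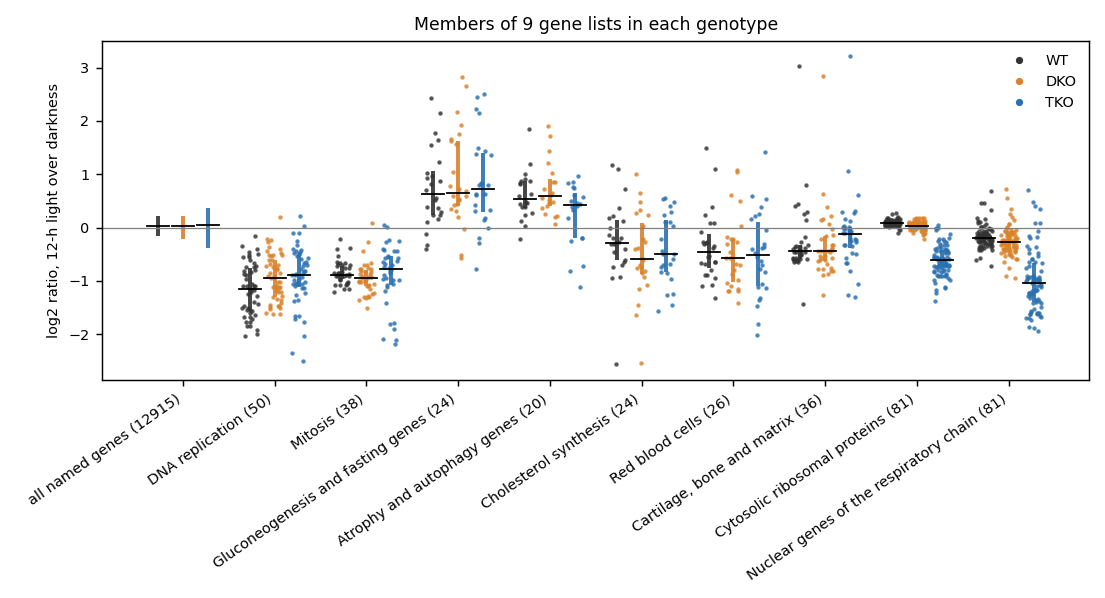
Log2 ratio of 12-h light to darkness (y axis) for the tested members of 9 gene lists and for all named genes, by genotype, with 1 point per gene, a black line at the median and a thick coloured bar from the first to the third quartile (number of genes in brackets). The medians of replication, mitosis and respiratory chain genes lie below 0 in all 3 genotypes and that of fasting genes above it. Ribosomal protein and respiratory chain genes have their lowest medians in TKO larvae.

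Of the 49 lists, gluconeogenesis and fasting genes held the most calls upward. Of 30 genes listed, 24 were tested, 18 were called higher and 2 lower, and the median change was 0.61 (0.63 in WT, 0.64 in DKO and 0.71 in TKO larvae). The leave-one-out fits and the fit of the 6 arrays alone called 12 to 18 of them higher. Some members, among them igfbp1b, tat, slc25a47a and ucp1, are also in the study's own table of genes induced by 12-h light in DKO larvae. That table comes from the same arrays and was known when the list was written, so the count of this list is not independent support. igfbp1b, a liver protein that binds insulin-like growth factors and rises in fasting, went from 3.63, 2.99 and 3.02 in darkness to 5.79, 5.81 and 5.48, a mean rise of 2.48 ± 0.127 (5.58-fold, limma adjusted p = 0.0004). Its paralog igfbp1a rose from 2.02, 2.08 and 2.12 to 3.56, 3.64 and 3.61, so the 3 genotypes were close to each other in both lightings. tat, tyrosine aminotransferase, an amino acid-degrading enzyme of the liver, rose by 2.43 ± 0.119 (limma adjusted p = 0.000338), and 5 probes of this gene gave rises from 2.31 to 2.62.

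The enzymes that commit carbon to glucose followed in part. pck1, the cytosolic phosphoenolpyruvate carboxykinase, went from 0.29, 0.09 and 0.35 to 1.52, 2.02 and 1.79 (mean 1.53 ± 0.147, limma adjusted p = 0.00226), and g6pc1a.1, a glucose-6-phosphatase that releases glucose, rose by 0.93. Pyruvate dehydrogenase kinase 2b (pdk2b), which holds pyruvate back from oxidation, rose by 1.32. The mitochondrial carriers slc25a47a and ucp1 rose by 2.15 and 1.82. The 2 falls were fbp2, the fructose bisphosphatase of muscle (-0.56, held in 4 of 9), and pck2, the mitochondrial form of the carboxykinase (-0.37, held in 4 of 9). Glycolysis genes were near the background, with 3 of 30 called higher and 1 lower and a median of 0.01. Of 5 genes of the PFKFB family, bifunctional enzymes that control glycolysis, pfkfb3 (0.72, held in 6 of 9) and pfkfb4a (0.38, held in 5 of 9) were called higher, and pfkfb2a was not called (-0.04). None of the glycolysis and PFKFB genes was called higher without DKO 12-h light, and 1 was called lower.

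Atrophy and autophagy genes rose alongside. Of 20 tested, 12 were called higher and none lower, with a median of 0.51. trim63a and fbxo32, the ubiquitin ligases of muscle wasting, rose by 1.53 ± 0.245 (limma adjusted p = 0.00864, lost without DKO 12-h light) and 1.29 ± 0.152 (limma adjusted p = 0.00358). The fbxo32 signal was 1.07, 0.81 and 1.45 in darkness and 2.27, 2.53 and 2.41 in the light, without overlap. sesn1, a stress-responsive inhibitor of TORC1 signalling, rose by 0.94 and ulk1a, a kinase that starts autophagy, by 0.83. Without DKO 12-h light 5 of the 20 were called. Of 15 glucocorticoid response genes 5 were called higher (33.3%) and 1 lower (6.67%), against 13.2% and 12.7% of all named genes. Their median change was 0.26 in WT, 0.37 in DKO and 0.04 in TKO larvae, and the sign differed between genotypes for 5 of the 15. The largest rise was that of klf9, a direct target of the receptor (-1.34, -0.93 and -0.58 in darkness, 0.06, 0.55 and 0.27 in the light, mean 1.25, limma adjusted p = 0.00299). The count of glucocorticoid response genes was 2 higher and none lower without DKO 12-h light.

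Lipid pathways were uneven. In cholesterol synthesis 11 of 24 genes were called lower and 5 higher, with a median of -0.42. hmgcra, the rate-limiting reductase, went from -0.50, -0.09 and 0.01 to -3.07, -2.62 and -1.26, and was the only gene of the list that fell at least 2-fold in every genotype (mean -2.12 ± 0.249, 4.35-fold, limma adjusted p = 0.00359). Its 3 probes gave falls from -2.12 to -1.33. lss, mvda and ebp, all enzymes of the pathway, fell by 1.18, 1.09 and 1.03 on the log2 scale and were called in 8, 7 and 6 of 9 leave-one-out fits, and hmgcs1 changed by -0.73. The genes called higher included insig1 (0.76), which retains the sterol sensor in the endoplasmic reticulum, and the lipoprotein receptor ldlra (0.71, held in 8 of 9). An enzyme of the pathway, msmo1, was also called higher (0.66, held in 2 of 9). The count of 11 was 2 without DKO 12-h light, 5 without TKO 12-h light, 6 without DKO Dark, 7 without WT 12-h light and 7 with the 6 arrays alone, and the count of 5 was 1 without DKO 12-h light or with the 6 arrays. Among 27 genes of fatty acid oxidation and PPAR targets 10 were called lower and 4 higher, but the median was only -0.09. The largest of these falls were cpt2, decr1 (held in 8 of 9) and acaa1, between -0.78 and -0.62. Of the 27, 3 were called lower and none higher without DKO 12-h light, and likewise with the 6 arrays. Fatty acid synthesis genes had 2 of 16 called higher and 3 lower, with a median of 0.09. The higher genes were dgat2, an enzyme of triglyceride synthesis (0.82 ± 0.0906, limma adjusted p = 0.00298), and acss2l, an acetyl-CoA synthetase gene (0.70), and both calls held in all 9 leave-one-out fits. The lower genes were the fatty acid elongase genes elovl2 (-0.87, held in 7 of 9) and elovl6 (-0.37, held in 4 of 9) and dgat1a (-0.40, held in 7 of 9), and none of these 3 was called without DKO 12-h light.

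In the unfolded protein response 10 of 26 genes were called lower (38.5%, against 12.7% of all named genes) and 5 higher (19.2%, against 13.2%). The median was -0.21. The counts lower and higher were 1 and 4 without DKO 12-h light, and 4 and 4 with the 6 arrays. The called falls held chaperones and folding enzymes of the endoplasmic reticulum, such as manf (-0.98, held in 7 of 9), pdia4 (-0.69) and hspa5 (-0.36, held in 2 of 9). The called rises held chac1 (0.90), ddit3 (0.86) and trib3 (0.71), which belong to the ATF4 branch. trib3 was 1.22, 1.38 and 1.27 in darkness and 1.96, 2.13 and 1.90 in the light, so its lit and dark arrays did not overlap.

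Some of the largest single changes were in signalling and protective genes. ptgdsb.1, a prostaglandin D synthase and lipocalin gene, went from -0.35, -0.28 and 0.15 to 3.22, 3.46 and 3.34 (mean 3.50 ± 0.142, 11.3-fold, limma adjusted p = 0.000171), and the related gene ptgdsb.2 rose by 1.32 (held in 8 of 9). Of 19 prostaglandin genes 4 were called higher (21.05%) and 2 lower (10.5%), and 1 fell at least 2-fold in every genotype. Leaving out DKO 12-h light, 2 of the prostaglandin genes were called higher and 1 lower. cyp24a1, which breaks down active vitamin D, rose from 2.21, 1.90 and 1.95 to 4.86, 5.13 and 4.97 (mean 2.96 ± 0.114, limma adjusted p = 0.000136), and the receptor gene vdrb rose by 0.88. Of 14 vitamin D genes 4 were called higher (28.6%, against 13.2% of all named genes) and none lower. Of 27 oxidative stress genes 6 were called higher (22.2%) and 2 lower (7.41%), against 13.2% and 12.7% of all named genes. The heme oxygenase genes hmox1b (1.78) and hmox1a (1.28, held in 8 of 9) led the rises. The 2 called lower were the glutathione transferase genes gstp1.1 (-1.02) and mgst3b (-0.99), each held in 7 of 9. The calls left without DKO 12-h light were 2 of the vitamin D genes and 1 of the oxidative stress genes, all higher. abcg2a, an export pump, rose by 2.05. cyp19a1a, the aromatase of the gonad, changed from -4.66, -3.92 and -3.84 to -7.51, -6.16 and -7.16 (mean -2.81, limma adjusted p = 0.0011), but was well above background on only 1 of the 3 lit arrays.

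hamp, the iron hormone hepcidin, shows how a mean can rest on a single pair. Its signal was 1.25, -3.47 and -0.22 in darkness and 2.41, 1.25 and 0.93 in the light. The rise was 4.72 in DKO larvae against 1.17 in WT and 1.16 in TKO larvae, the dark DKO array was the lowest of the 6, and the call (limma adjusted p = 0.0421) held in 2 of 9 leave-one-out fits. Among the other largest rises, si:dkey-104n9.1, which has only a clone name, rose by 3.61. The RING-finger gene lonrf1 rose by 2.66. Its rises were 2.68, 2.66 and 2.64 in WT, DKO and TKO larvae, although their dark levels ran from -3.24 to -1.22. crtac1a, a matrix protein gene, rose by 3.02. fabp1a rose by 2.40 and was well above background on 1 of 3 dark arrays.

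Among the falls, g0s2, an inhibitor of fat cell lipase, went from -1.42, -0.85 and 0.11 to -2.99, -3.16 and -2.50 (mean -2.16 ± 0.236, limma adjusted p = 0.00289). ntmt2, a methyltransferase gene, fell by 2.15 on the log2 scale, with -3.98 to -4.93 in the light against -2.46 to -2.06 in darkness. The kinetochore gene cenph (-1.80) and the DNA crosslink repair gene ube2t (-1.84) were in none of the replication and mitosis lists above. or42a4 changed by -2.62 and a gene that has only a clone name by -2.81, and on the lit arrays they were well above background on 1 and 2 of 3. nkl.4 was not well above background on any lit array and was at least 2.65-fold lower than in darkness, its dark signals being -5.82, -5.31 and -5.20, and its call was lost without DKO 12-h light. zgc:172053, LOC560010 and zgc:112146 had mean changes from -2.51 to -1.97. zgc:163040 changed by -1.86, with a call that was lost without DKO 12-h light or TKO 12-h light, and its 4 probes ran from -1.92 to -0.42. Of the 15 largest rises 14 and of the 15 largest falls 13 were called in all 9 leave-one-out fits.

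**Figure D3:**
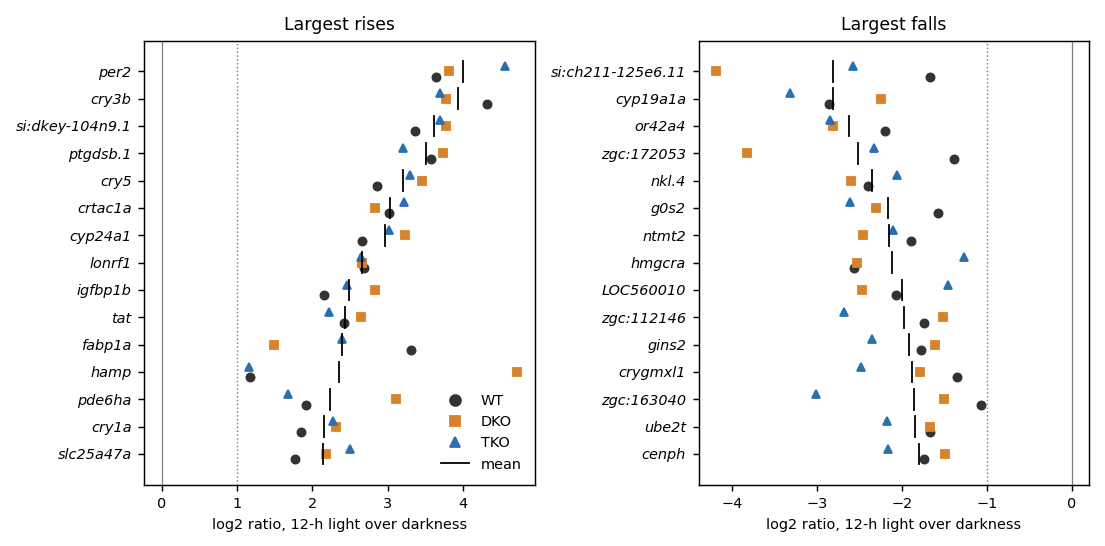
Log2 ratio of 12-h light to darkness (x axis) in WT, DKO and TKO larvae for the 15 largest mean rises and the 15 largest mean falls among genes called by limma and changed at least 2-fold in every genotype, with a black tick at the mean and a dotted line at 2-fold. All 3 genotypes lie beyond 2-fold for every gene shown because the genes were chosen that way. The values of hamp are widely spread, with DKO larvae farthest from 0.

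The tissues of the larva are described next, beginning with the eye. Rod and cone phototransduction genes fell and rose in the same cascade. Of 48 tested, 20 were called lower and 6 higher, the median was -0.13, and 4 genes changed at least 2-fold in every genotype in each direction. The cone opsins were among the brightest probes. opn1mw1, a green opsin, was 6.43, 6.50 and 7.01 in darkness and 5.02, 5.04 and 5.20 in the light (mean -1.56 ± 0.114, limma adjusted p = 0.00116). opn1lw2, a red opsin, fell from 6.87, 6.79 and 7.08 to 5.61, 5.42 and 5.49 (mean -1.41 ± 0.0963, limma adjusted p = 0.00104), and opn1sw2, the blue opsin, from 5.63, 5.57 and 6.02 to 4.38, 4.25 and 4.59 (mean -1.33 ± 0.0811, limma adjusted p = 0.000651). The ultraviolet opsin opn1sw1 changed by only -0.35 and held in 2 of 9. Opsin genes have close copies in the genome, and their probes may share signal.

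Elements that switch the cascade off did not share a direction. The kinase genes grk1b and grk7b, which phosphorylate lit opsin, changed by -1.29 and -0.96. The cone arrestin genes arr3a and arr3b, which cap phosphorylated opsin, rose by 1.81 ± 0.162 (limma adjusted p = 0.00197) and 1.87 ± 0.144 (limma adjusted p = 0.00142). arr3a went from 4.35, 4.10 and 4.25 to 5.85, 6.29 and 5.98, and arr3b from 0.96, 0.41 and 0.90 to 2.78, 2.57 and 2.52, with no overlap of dark and lit arrays. pde6ha, the inhibitory subunit of the cone phosphodiesterase, rose from 5.37, 4.74 and 6.08 to 7.29, 7.85 and 7.76, most in DKO larvae (3.11). rcvrn3, a recoverin gene, rose by 1.63 and guca1aa, an activator of guanylate cyclase, by 1.13. Of the transducin genes gnat2 (cone) changed by -0.95 and gnat1 (rod) by -0.34, the latter held in 2 of 9. The count of 20 lower genes was 9 without DKO 12-h light or TKO 12-h light, 11 without WT 12-h light, 12 without WT 3-h light, 13 without WT Dark and 9 with the 6 arrays alone.

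The retinoid and carotenoid genes, which make and recycle the chromophore, rose more often than they fell. Of 29 tested, 12 were called higher and 3 lower, with a median of 0.27. bco1l, a carotenoid cleavage enzyme, went from -4.07, -3.81 and -3.61 to -2.52, -1.54 and -1.39 (mean 2.02 ± 0.191, limma adjusted p = 0.00223), and scarb1, which takes up carotenoids, rose by 1.50. The retinol dehydrogenase genes split, with rdh5 of the pigment epithelium higher by 1.22 and the photoreceptor gene rdh8b at -1.08 ± 0.0924. rpe65a, the isomerase gene, rose by 0.71. Without DKO 12-h light 7 of the 29 were called higher. Lens crystallins gave 1 call upward and 3 downward among 51, the largest being crygmxl1 (-1.88, with -1.35, -1.79 and -2.48 in WT, DKO and TKO larvae), and 1 of them was called, lower, without DKO 12-h light.

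**Figure D4:**
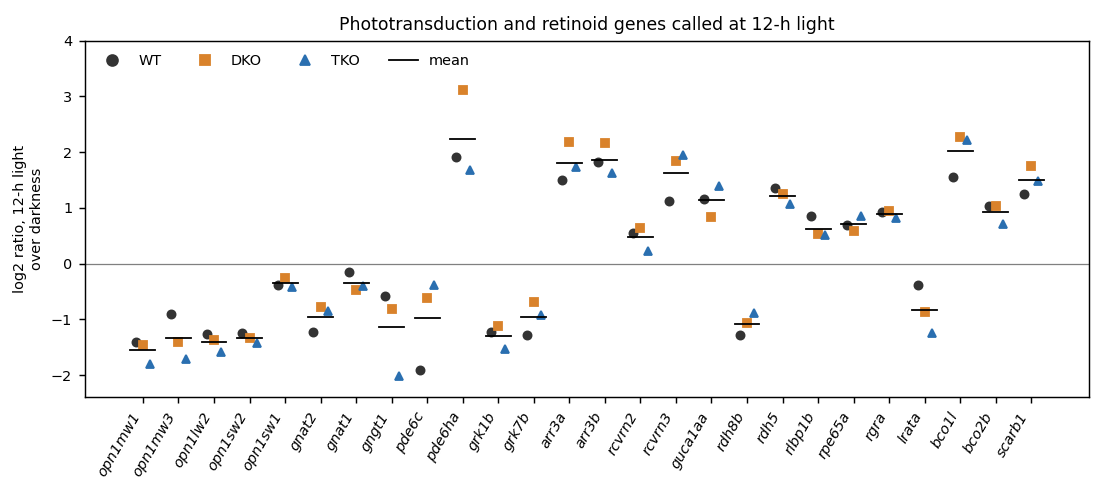
Log2 ratio of 12-h light to darkness (y axis) in WT, DKO and TKO larvae for selected phototransduction, retinoid and carotenoid genes that limma called, with a black line at the mean. Most of the genes shown were named after their values were seen. Of phototransduction genes 20 were called lower and 6 higher, and some of the lower ones are not shown. Cone opsin, transducin and opsin kinase genes lie below 0, and arrestin, recoverin, pde6ha and carotenoid genes above it.

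In the blood, red cell genes were lower. Of 34 listed, 26 were tested, and 16 were called lower and 3 higher, with a median of -0.69 (-0.46 in WT, -0.57 in DKO and -0.51 in TKO larvae). The globin gene hbae1.1 was 7.15, 7.34 and 7.61 in darkness and 6.26, 6.31 and 6.14 in the light (mean -1.13 ± 0.128, limma adjusted p = 0.00327), and hbaa2, at a much lower level, fell by 1.35 on the log2 scale, at least 2-fold in every genotype. Globin genes are near-identical copies, and their probes may not separate them. Genes outside the globin clusters also fell, among them alas2, the first enzyme of heme synthesis in red cells (-0.90), the anion exchanger slc4a1a (-1.04) and the master factor gata1a (-0.81), and the latter 2 calls were lost without DKO 12-h light. The called rises, of which 1 was left without DKO 12-h light, were fech (1.32 ± 0.102, limma adjusted p = 0.00142), the last enzyme of heme synthesis, tspo (0.86, held in 7 of 9) and klf3 (0.46, held in 6 of 9). The count of 16 lower genes was 5 without DKO 12-h light and 10 without TKO 12-h light, and 18 without the dark TKO array.

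Cartilage, bone and matrix genes were lower too. Of 36 tested, 17 were called lower and 3 higher, with a median of -0.35 (-0.45 in WT, -0.44 in DKO and -0.12 in TKO larvae). cnmd, the cartilage protein chondromodulin, went from 2.85, 3.13 and 3.33 to 2.27, 2.35 and 2.67 (mean -0.67 ± 0.0949, limma adjusted p = 0.00605), col11a2 changed by -0.66 (held in 8 of 9) and col10a1a, a collagen of mature cartilage, by -0.61. The main cartilage collagen col2a1a changed by -0.46 and its call held in 1 of 9. The called rises included crtac1a, the matrix protein gene named above (3.02, held in all 9). It was the only member of the list that changed at least 2-fold in every genotype. The count of 17 was 2 without DKO 12-h light, 8 without WT 12-h light, 10 without WT Dark or TKO 12-h light, 23 without the dark TKO array and 6 with the 6 arrays alone.

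Digestive organs showed both directions. In the exocrine pancreas 8 of 27 genes were called higher (29.6%, against 13.2% of all named genes) and 2 lower (7.41%, against 12.7%). The count of 8 was 4 without DKO 12-h light, 5 with the 6 arrays and 12 without the dark TKO array. The carboxypeptidase gene cpa1 went from 2.94, 2.49 and 2.22 to 4.37, 4.17 and 3.75 (mean 1.54 ± 0.0805, limma adjusted p = 0.0004) and the amylase gene amy2a from 6.96, 6.30 and 5.97 to 8.14, 7.76 and 7.65 (mean 1.44 ± 0.107, limma adjusted p = 0.00122). The trypsin gene prss1, at 8.78 to 8.96 in darkness, changed by 0.12 and was not called, and ptf1a, a factor that specifies the pancreas, changed by -0.90 (held in 7 of 9). Of 28 intestinal genes 10 were called lower (35.7%) and 6 higher (21.4%), with a median of 0.00. Leaving out DKO 12-h light, 1 was called lower and 4 higher, and with the 6 arrays 5 and 5. fabp2, a fatty acid carrier of enterocytes, fell from 5.80, 5.87 and 7.10 to 4.99, 4.82 and 5.21 with a call that was lost without DKO 12-h light or TKO 12-h light, while the chitinase gene chia.1 rose by 1.42 and the glucose transporter gene slc5a1 by 1.04, from 0.83, 1.02 and 1.08 to 1.87, 2.09 and 2.10. Among 34 hepatocyte genes 6 were called higher (17.65%) and 4 lower (11.76%), near the 13.2% and 12.7% of all named genes. Their median was 0.03. The largest rise was that of tdo2b (1.17), a tryptophan-degrading enzyme, and fabp10a, the liver carrier used as the first marker, was not called (-0.45). Of the hepatocyte genes 3 were called higher and none lower without DKO 12-h light.

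Ionocytes and ammonium transport gave 6 calls of 26, all upward (23.1%, against 13.2% of all named genes called higher). arg2, arginase, rose from 0.49, 0.59 and 0.50 to 2.37, 2.77 and 2.28 (mean 1.95 ± 0.0959, 3.85-fold, limma adjusted p = 0.000338). rhcgl1, an ammonium channel gene, rose by 1.29 although its dark level ran from -5.62 in WT larvae to -3.53 in TKO larvae, and rhcga rose by 1.24 (held in 7 of 9). The count of 6 was 3 without DKO 12-h light.

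Most other tissues were close to or below the shares of all named genes. In fast and slow muscle 5 of 48 genes were called lower and 1 higher with a median of 0.00, the largest being the calcium store gene casq1a (-1.03 ± 0.112, limma adjusted p = 0.00287) and cavin4a (-0.96). Neurons had 3 of 27 called lower and 2 higher, among them th, the rate-limiting enzyme of dopamine synthesis, which rose by 0.52, and the marker elavl3 was not called (0.42). Glia had 3 of 22 called lower and 1 higher, with fabp7a of radial glia at -1.33 (held in 7 of 9) as the largest. Neutrophil, macrophage and inflammation genes had 2 of 40 called higher and 1 lower, heart genes 1 of 16, skin epithelium 4 of 31, all lower, and endothelium 3 of 23 higher and 1 lower. The skin keratin krt4 was 7.93, 7.75 and 7.68 in darkness and 7.90, 7.81 and 7.72 in the light. In the endocrine pancreas 2 of 16 genes were called in each direction. The glucagon genes gcgb (-0.81, held in 7 of 9) and gcga (-0.61, held in 3 of 9) were the lower ones, and pcsk1, a prohormone-cutting enzyme (0.86, held in all 9), and neurod1, a transcription factor of islet cells and neurons (0.45, held in 6 of 9), the higher ones. Of 29 pigment cell genes 6 were called higher (20.7%) and 4 lower (13.8%), above the 13.2% and 12.7% of all named genes. The largest of these changes was that of gch2, which makes the pteridine precursor. It was -1.78, -1.86 and -0.33 in WT, DKO and TKO larvae (held in 4 of 9). In these tissues the calls left without DKO 12-h light numbered 3 lower in muscle, 1 lower in skin, and 1 higher each in neurons, leukocytes, endocrine pancreas and pigment cells, with none in glia, heart and endothelium.

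**Figure D5:**
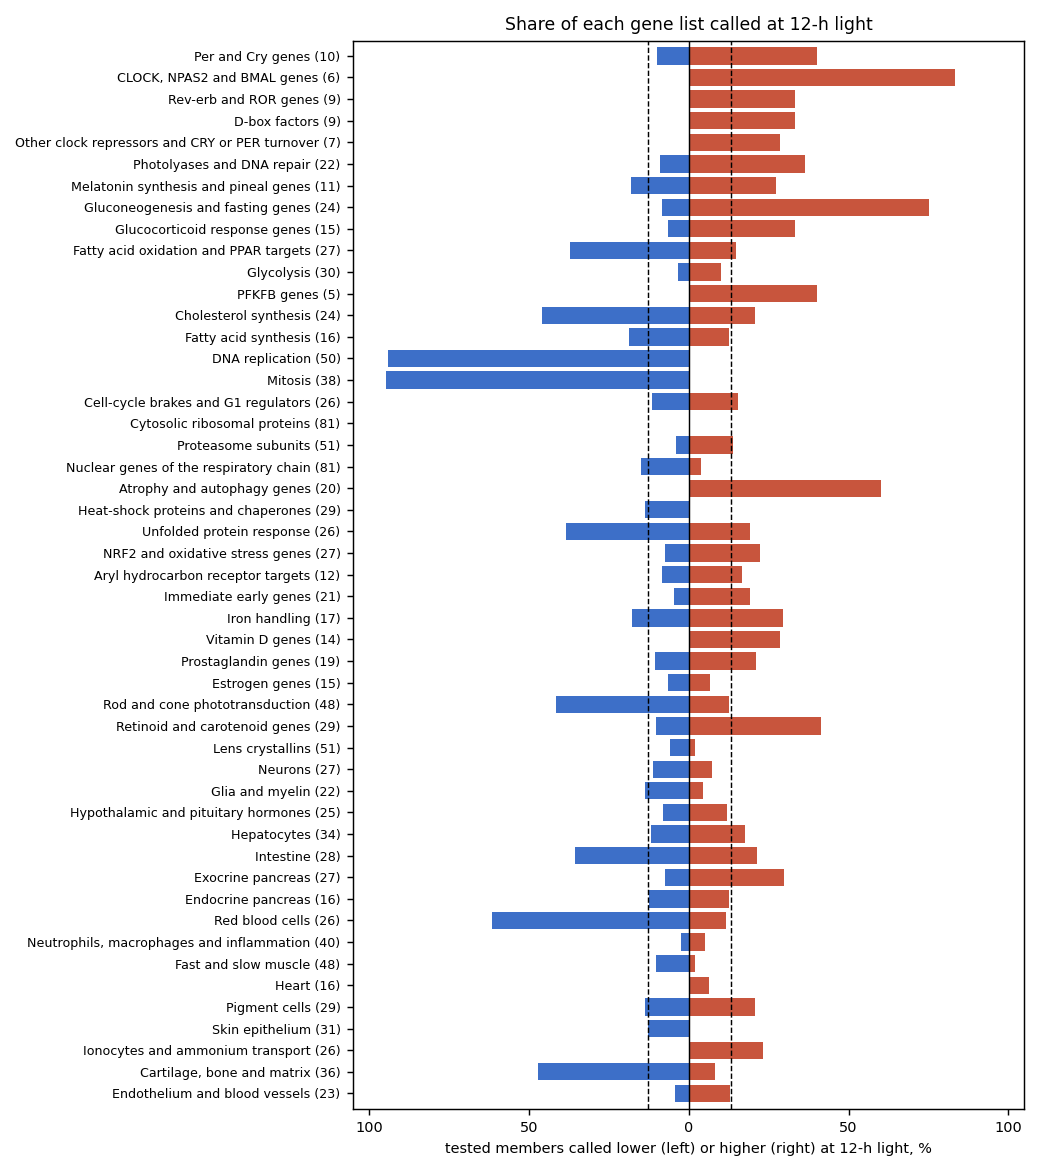
Share of the tested members of each of 49 gene lists that limma called higher (right) or lower (left) at 12-h light (x axis, percent), with the number tested in brackets and dashed lines at the shares of all named genes (13.2% higher and 12.7% lower). Replication, mitosis and red blood cells have the longest bars on the left, and CLOCK, NPAS2 and BMAL, fasting and atrophy genes on the right.

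Abundant housekeeping genes and some tissue lists had lower medians in TKO larvae than in WT and DKO larvae, a difference that was not tested. None of 81 cytosolic ribosomal protein genes was called by limma and none had an unadjusted p under 0.05, and their median change was 0.09 in WT and 0.03 in DKO but -0.61 in TKO larvae. Without the dark TKO array the median over the list was 0.06. Nuclear genes of the respiratory chain had medians of -0.19, -0.27 and -1.05 in the same order. Of these 81 genes 12 were called lower (14.8%, near the 12.7% of all named genes) and 3 higher (3.70%, against 13.2%). The 3 higher were sdha (0.63), sdhb (0.57) and ndufv1 (0.35, held in 4 of 9). Without the dark TKO array the respiratory median was -0.23, and 29 genes were called lower and 4 higher, and without DKO 12-h light 1 and 2. Proteasome genes had 7 of 51 called higher (13.7%, near the 13.2% of all named genes) and 2 lower (3.92%, against 12.7%). The called rises included psmd11b (0.87) and psmd11a (0.80). Of the proteasome genes 17 were called higher without the dark TKO array and 3 without DKO 12-h light. Lens crystallins and hypothalamic and pituitary hormones had medians of -0.46 and -0.61 in TKO larvae, against 0.04 and 0.17 in WT and 0.15 and 0.05 in DKO larvae. These TKO values share the dark TKO array, and the part of RNA quality or of the array itself in them was not tested. The medians of replication, mitosis, fasting and respiratory chain genes lay on the same side of 0 in all 3 genotypes. So did those of several other lists, such as atrophy, cholesterol and red blood cell genes. The same held for all named genes (0.03 in WT, 0.03 in DKO and 0.05 in TKO larvae), so this trait alone does not set a list apart. Of the 81 respiratory chain genes 66 were lower in every genotype, against 3631 of 12915 named genes.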

How the data were processed

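The deposited intensity of each spot is, per the file headers, the background-subtracted and detrended Cy3 signal of Agilent Feature Extraction 11.5.1.1, without normalization between arrays, and the authors also deposited the median spot and background intensities, quality flags, and a table that holds these intensities times a constant of its own for each array. The software named in the methods of the study is not the one in the headers. Log2 signals minus the array's 75th percentile of spots that are not controls were computed here, spots of a probe were averaged, and 1 to 8 outlier spots per array were left out. No spot was saturated. Of 43603 probes, 26094 were paired with a symbol through RefSeq accessions (assembly GRCz12tu), giving 13443 genes, of which 12915 had a probe well above background on at least 3 arrays. A gene's tested probe with the highest mean signal stood for it, and 8 of 7510 genes with several probes had probes called in both directions.

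limma 3.58.1 in R 4.3.3 fitted lighting and genotype to 9 arrays, with 4 residual and 2.94 prior degrees of freedom and Benjamini-Hochberg adjustment over 39143 probes, of which 16455 had an unadjusted p under 0.05. A probe with an outlier spot on an array has no value there (5 probes). No condition has a second array, so p-values rest on the spread left after both terms. In simulated data for 39138 probes of this comparison, 92 of 100 probes changed 4-fold and 69 of 100 changed 2-fold were recovered, with 7 false calls. The simulated noise was independent between probes, no other probe was changed and no array lay apart. The error rate of the calls reported here therefore cannot be read from it. Summaries used Python 3.11.15, pandas 2.3.3 and numpy 2.4.6.

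The genes to be named were all Per and Cry genes, the 15 largest rises and falls among genes called and changed at least 2-fold in every genotype, and up to 4 called members of each list with the largest change, plus the first member of each tissue list. Not every gene that this rule gives is described. Other genes were named after their values were seen. The members and the lists were chosen with earlier results of these data known. A probe below background on every array of a group gives only a bound, computed from the lowest signal well above background on each array. The alternatives were quantile normalization, median scaling, the deposited table, normexp (offset 50), other filters, variance models and samples, and leaving out each array. No set tests were run.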

Additional observations from a re-analysis of the deposited data

Results flagged for a closer look

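Results are listed here where 1 genotype moved up and another down by more than the spread of a ratio between spots (0.188, log2), with 1 pair of arrays per genotype. None of these differences was tested. The median log2 ratio of proteasome genes was 0.252 in WT, 0.085 in DKO and -0.313 in TKO larvae. per3 changed by -0.218 in WT, 0.171 in DKO and 0.276 in TKO larvae. cry2 changed by -1.10 in WT, 0.288 in DKO and 0.694 in TKO larvae. mpx, the neutrophil peroxidase, changed by -0.355 in WT, 0.392 in DKO and 0.772 in TKO larvae. kdrl, a receptor of blood vessels, changed by 0.332 in WT, -0.196 in DKO and 0.463 in TKO larvae. limma called none of these 4 genes over the 3 genotypes.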

How the results depend on the processing

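No called direction turned under any alternative for the genes named or the list medians over 0.188 in size. The 9455 called probes were 2358 with no replicate block (no genotype term), 2918 with the 6 dark and 12-h light arrays alone and 3661 with only the dark and 12-h light arrays of WT and DKO larvae, a fit added after seeing the data, and 1994 to 10575 with 1 array left out. These fits have fewer residual degrees of freedom or no slide term, and the cause was not tested further. The 163 genes changed at least 2-fold in every genotype were 643 at 1.5-fold, 28 at 3-fold, 83 after normexp, and 196 to 244 with 1 genotype left out. With no replicate block the called members of the lists in their main direction were 6 for atrophy, 0 for CLOCK, NPAS2 and BMAL (where 2 to 5 of 6 were called in most other fits by limma), 8 for cartilage, 1 for cholesterol, 10 for fasting and 7 for phototransduction genes. With the 6 arrays alone they were 1 for CLOCK, NPAS2 and BMAL, 6 for cartilage, 7 for cholesterol and 9 for phototransduction, and with WT and DKO larvae alone 2, 11, 7 and 11. Leaving out 1 array gave 33 to 49 for replication, 24 to 37 for mitosis, 12 to 18 for fasting, 5 to 15 for atrophy, 1 to 5 for CLOCK, NPAS2 and BMAL, 2 to 11 for cholesterol, 5 to 18 for red blood cells, 2 to 23 for cartilage, 9 to 21 for phototransduction and 7 to 13 for retinoid genes. Of 301 genes followed, 143 lost their call without DKO 12-h light, 128 with no replicate block and 96 with the 6 arrays. The median change of all probes was 0.09, and 0.12 in the deposited table. The precision is limited by the number of arrays, 1 per condition.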
